A study of Mus musculus with 4 samples.

Results

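The Schlafen family was examined through 7 genes, Slfn1, Slfn2, Slfn3, Slfn4, Slfn5, Slfn8 and Slfn9, taken by name from the 49671 genes of the 2 deposited tables, and all 7 were found. The samples were 4 libraries, labelled biological replicates, from female F1 mice (F1 mus x cast) of C57BL/6 mothers heterozygous for an Xist deletion and castaneus fathers. Splenic CD3+ T cells, enriched on columns, were stimulated with plate-bound anti-CD3 (1 µg/ml) and soluble anti-CD28 (10 µg/ml), and all 4 cultures also received 2.5 µM of IMD-0354, an inhibitor of the kinase IKKβ that activates NF-κB, for 48 hours. The 4 libraries form 1 group, and unstimulated cells or cells without the inhibitor are not analysed here. Mouse ages are not given in the labels, and which daughters inherited the deletion is not stated there. The family lies on an autosome, so the comparison the design allows is between the C57BL/6 allele, inherited from the mother, and the Castaneus allele, inherited from the father, within each replicate. Strain and parent of origin cannot be told apart, since every mother was C57BL/6, nor can either be told apart from unequal placement of reads from the 2 alleles.

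Schlafen proteins share an N-terminal region with a ribonuclease-like fold, and the long members carry a C-terminal helicase-like region as well. In mice Slfn1 and Slfn2 are the short members, Slfn3 and Slfn4 are intermediate, and Slfn5, Slfn8 and Slfn9 are long. Several members are induced by type I interferon. Slfn2 is known for keeping naive T cells quiescent, since mice with the elektra mutation in this gene lose T cells that enter a semi-activated state and die. Slfn1 slows the growth of thymocytes when overexpressed, and Slfn4 is best known from macrophages and other myeloid cells.

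The 7 genes occupy 264 kb of chromosome 11 (chr11:82951349-83215154, mm10), and all are protein coding in GENCODE M21. Slfn5 (ENSMUSG00000054404, chr11:82951349-82964840) is followed by Slfn9 (ENSMUSG00000069793, chr11:82978390-82991830) and Slfn8 (ENSMUSG00000035208, chr11:83002158-83020810), both on the minus strand. Then come Slfn2 (ENSMUSG00000072620, chr11:83065112-83070678), Slfn1 (ENSMUSG00000078763, chr11:83116849-83122670), Slfn4 (ENSMUSG00000000204, chr11:83175186-83190216) and Slfn3 (ENSMUSG00000018986, chr11:83191330-83215154), which like Slfn5 are on the plus strand. The coding sequence of the longest annotated form runs from 1011 bases in Slfn1 and 1134 in Slfn2, through 1806 in Slfn4 and 1920 in Slfn3, to 2652 in Slfn5 and 2730 in both Slfn8 and Slfn9. The family has 2 close pairs. Slfn8 and Slfn9 were identical at 92.7% of 2730 aligned coding bases, and Slfn3 and Slfn4 at 92.3% of 1785. The other 19 pairs had 57.6% to 75.3% identity.

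The closeness of the first pair matters for the allele counts, since a read from one gene can match the other. The stretches below are bases 1321 to 1410 of both coding sequences (GENCODE M21), the middle of their longest alignment without a gap. Capitals mark the 4 positions that differ, and the longest run without a difference is 53 bases.
Slfn9: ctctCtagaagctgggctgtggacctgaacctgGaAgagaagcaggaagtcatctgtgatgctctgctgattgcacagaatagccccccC
Slfn8: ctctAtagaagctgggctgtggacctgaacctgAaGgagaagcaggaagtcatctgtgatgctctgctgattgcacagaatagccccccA
Over whole transcripts, 389 of the 50-base words of Slfn8 (9.30%) also occur in Slfn9, where they make up 6.52%. Both share more words with the pseudogene Slfn10-ps between Slfn8 and Slfn2, which holds 10.1% of the words of Slfn8 and 8.10% of those of Slfn9. Slfn3 and Slfn4 share 252 words, 7.39% of those of Slfn3 and 6.28% of those of Slfn4. Words found in any other gene made up 0.606% for Slfn1, 4.27% for Slfn2, 11.1% for Slfn5, 11.3% for Slfn4, 11.9% for Slfn9, 14.6% for Slfn8 and 16.0% for Slfn3. The sources used here do not say how reads that match several genes were counted, so values of the 2 close pairs are uncertain to that extent.

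The promoters were searched for motifs on both strands. A core of the interferon-stimulated response element, GAAA followed by any 2 bases and GAAA again, was found in the windows of Slfn5, Slfn8 and Slfn9 and not in those of Slfn1, Slfn2, Slfn3 and Slfn4. Of all 32851 promoter windows of the same length, 3.44% hold it. A match describes letters and is not a measured binding site. The windows below run from 250 bases before the start site to 50 after it (RefSeq, GRCm38.p6), 5′ to 3′ on the gene's strand, with the match in capitals. They are Slfn5 at chr11:82951852-82952151, Slfn9 at chr11:82991781-82992080, Slfn8 at chr11:83020761-83021060 (1 of 2 overlapping windows, each with the match) and, for contrast, Slfn2 at chr11:83064862-83065161.
Slfn5: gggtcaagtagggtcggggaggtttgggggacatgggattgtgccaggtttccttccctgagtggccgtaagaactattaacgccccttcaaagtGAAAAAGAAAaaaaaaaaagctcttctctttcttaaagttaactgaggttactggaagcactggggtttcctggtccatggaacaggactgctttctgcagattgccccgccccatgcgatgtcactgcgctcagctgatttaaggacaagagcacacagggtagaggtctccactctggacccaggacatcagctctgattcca
Slfn9: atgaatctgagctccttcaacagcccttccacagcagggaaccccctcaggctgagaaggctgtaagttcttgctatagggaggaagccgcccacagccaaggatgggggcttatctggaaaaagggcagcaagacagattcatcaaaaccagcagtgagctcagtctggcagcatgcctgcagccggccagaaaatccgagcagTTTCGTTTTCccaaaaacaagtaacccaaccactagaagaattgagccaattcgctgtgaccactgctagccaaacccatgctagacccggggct
Slfn8: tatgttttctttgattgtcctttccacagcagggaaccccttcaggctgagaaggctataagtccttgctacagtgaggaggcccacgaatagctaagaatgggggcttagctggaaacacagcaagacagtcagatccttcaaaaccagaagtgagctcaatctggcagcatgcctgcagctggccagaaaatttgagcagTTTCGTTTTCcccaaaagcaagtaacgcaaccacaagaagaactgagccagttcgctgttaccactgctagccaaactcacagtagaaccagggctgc
Slfn2: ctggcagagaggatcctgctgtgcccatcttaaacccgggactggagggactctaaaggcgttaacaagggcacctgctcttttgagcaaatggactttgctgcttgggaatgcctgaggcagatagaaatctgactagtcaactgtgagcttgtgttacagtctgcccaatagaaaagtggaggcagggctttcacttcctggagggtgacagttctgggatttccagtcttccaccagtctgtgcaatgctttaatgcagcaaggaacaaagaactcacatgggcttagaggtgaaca
In Slfn9 and Slfn8 the same 10 letters, on the strand opposite to transcription, begin 45 and 48 bases before the start site, and the 2 windows are identical at 84.9% of 292 aligned bases. In Slfn5 the match begins 155 bases before the start site and runs into a stretch of A. The RefSeq start site used for Slfn5 lies inside the gene as annotated in GENCODE M21. The bases before the GENCODE start at 82951349 were not searched. The NF-κB consensus, the motif of the factors downstream of the inhibited kinase, had a match in the windows of Slfn9 (on both strands at 1 place) and Slfn1 and in none of the other 5 genes, against 8.46% of all windows.

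Slfn2, the quiescence gene, was the most abundant member. Its level was 5.03, 7.33, 5.35 and 5.73 RPKM in replicates 1 to 4, a mean of 5.86 ± 1.02 RPKM (SD, n = 4). RPKM are reads scaled by gene length and library size, here of both alleles together, so levels can be compared between genes. The mean was higher than in 62.9% of the 16192 autosomal genes with at least 0.1 RPKM. It was 4.26 times the mean of Slfn1 and 4.38 times that of Slfn5, and the lowest Slfn2 replicate stood above the highest replicate of every other member.

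**Figure D1:**
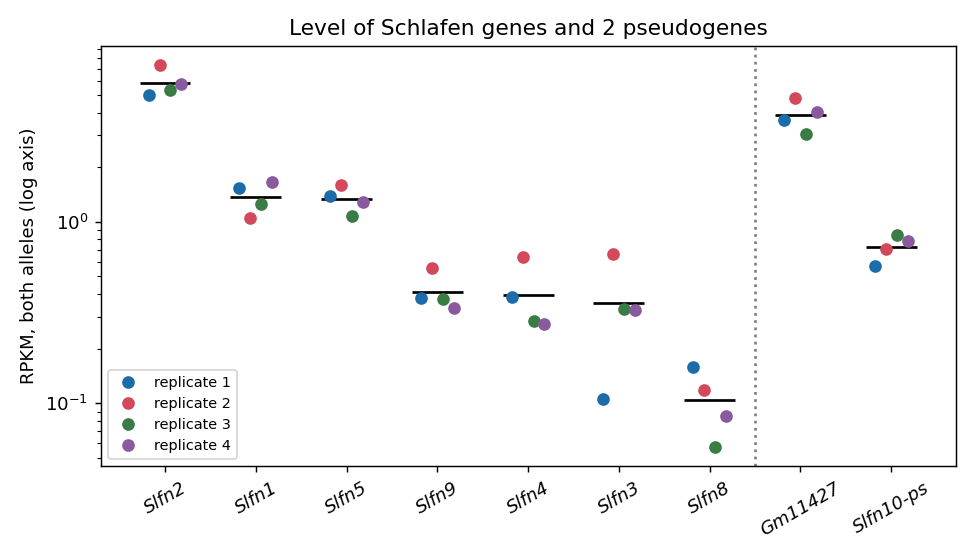
RPKM of both alleles (log axis) in each of 4 replicates for the 7 Schlafen genes, in the order of their means (black lines), and for the pseudogenes Gm11427 and Slfn10-ps to the right of the dotted line. Slfn2 stands above the other members in every replicate, Slfn1 and Slfn5 overlap, and Gm11427 lies between Slfn2 and these.

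Slfn1, the other short member, had 1.54, 1.05, 1.25 and 1.67 RPKM, and Slfn5, a long member, had 1.38, 1.60, 1.07 and 1.30. Their means of 1.38 ± 0.279 and 1.34 ± 0.218 RPKM (SD, n = 4) differ by less than the spread, and their ranges overlap. Both stood above the remaining 4 members in all 4 replicates. Slfn9, another long member, had 0.381, 0.555, 0.373 and 0.333 RPKM, with a mean of 0.411 ± 0.0987. Slfn4 had 0.386, 0.637, 0.286 and 0.272 RPKM, with a mean of 0.395 ± 0.169. Slfn3, which is close to Slfn4 in sequence, had 0.105, 0.664, 0.332 and 0.325 RPKM, with a mean of 0.356 ± 0.230. These 3 genes overlap in level and have no order beyond their spread. Slfn8 was the lowest, with 0.158, 0.118, 0.0571 and 0.0848 RPKM and a mean of 0.104 ± 0.0436, and its range still overlaps that of Slfn3 through replicate 1. Slfn8 was thus near the 0.1 RPKM floor of the ranking, and only 0.593% of those genes were lower.

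Depth behind the allele counts was 30539711 to 34992012 allelic reads per replicate. Reads came in clumps. Among autosomal genes with 20 to 39 allelic reads, 13.5% (replicate 4) to 84.2% (replicate 2) were read from 1 allele only. If the alleles of these genes were equal, this corresponds to 7.19 to 22.6 reads per molecule. The 4 libraries showed their labelled cell type, with all 9 T cell markers at 8.79 RPKM or more in the mean. Levels of other markers are given beside Slfn4 below.

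How many reads could be assigned to an allele differed widely between members. Divided by RPKM and by exon length in kb, the mean number of allelic reads per replicate had a median of 53.4 over 10251 autosomal genes (quartiles 34.3 and 71.6). Slfn5 with 55.4, Slfn9 with 72.2, Slfn8 with 74.9 and Slfn4 with 77.2 lay above this median. Slfn3 with 16.7, Slfn2 with 9.95 and Slfn1 with 1.75 lay below the lower quartile, and only 4.47% and 0.741% of the genes had lower values than Slfn2 and Slfn1. The short members Slfn1 and Slfn2, which share the fewest 50-base words with other genes, and Slfn3, which shares the most, thus had few informative reads for their level. Slfn1 had no allelic read in replicates 1 and 2, 14 in replicate 3 and 4 in replicate 4, so its alleles could not be compared at a level of over 1 RPKM.

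Slfn5 was read mostly from the C57BL/6 allele. The C57BL/6 and Castaneus reads were 450 and 116 in replicate 1, 388 and 58 in replicate 2, 350 and 58 in replicate 3, and 360 and 96 in replicate 4. C57BL/6 was higher in 4 of 4 replicates, and the Castaneus share was 17.2% ± 4.17 (SD, n = 4). The shares ran from 13.0% to 21.1%, well below the 49.6% ± 0.0870 of all autosomal reads and the 50.3% ± 0.176 of chromosome 11. The exact Clopper-Pearson 95% intervals of the 4 replicates spanned 10.0% to 25.1%, and such intervals cover counting error only, since clumped reads are not independent. In edgeR's quasi-likelihood test with the replicate as a block, the log2 ratio of Castaneus to C57BL/6 was -2.27 with a standard error of 0.25 (adjusted p = 6.17e-05), a 4.81-fold higher C57BL/6 level. Of 10268 autosomal genes tested 28.1% were called in either direction at an FDR of 5%, 15.6% towards C57BL/6 and 12.4% towards Castaneus, so a call by itself is common, while 1.90% of the genes had a lower log2 ratio than Slfn5. If the shares hold for all its reads, 1.11 ± 0.203 RPKM of Slfn5 came from C57BL/6 and 0.229 ± 0.0609 from Castaneus. The gene Slfn5os overlaps Slfn5 on the opposite strand and was listed at 0 RPKM in all 4 replicates.

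**Figure D2:**
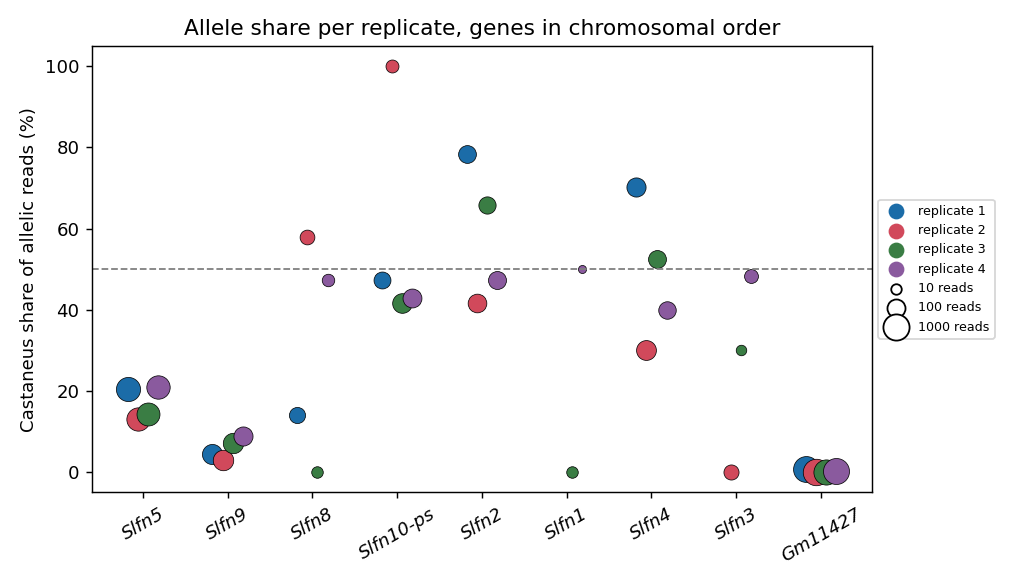
Castaneus share of the allelic reads (%) in each replicate for the Schlafen genes, Slfn10-ps and Gm11427 in chromosomal order, with point area growing with the number of allelic reads and equal alleles at the dashed line. Slfn5 and Slfn9 lie between 3.00% and 21.1% in every replicate and Gm11427 lies below 1%, while the other genes shown scatter widely.

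Slfn2 showed no allele difference beyond the spread between replicates. Its C57BL/6 and Castaneus reads were 20 and 72, 70 and 50, 27 and 52, and 51 and 46 in replicates 1 to 4. Castaneus was the higher allele in replicates 1 and 3 and C57BL/6 in replicates 2 and 4, and the mean share from Castaneus was 58.3% ± 16.8 (SD, n = 4). The log2 ratio was 0.54 with a standard error of 0.67 (edgeR, adjusted p = 0.603). On the estimate of reads per molecule above, the Slfn2 reads stand for 5.30 to 13.5 molecules per replicate, against 19.7 to 63.4 for Slfn5. The antisense gene Gm20234, which overlaps Slfn2, was listed at 0 RPKM.

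The other members fell short of the minimum of 1 RPKM or 20 allelic reads for this test. Without the RPKM minimum 13627 autosomal genes were tested, of which 22.9% were called, 12.5% towards C57BL/6 and 10.4% towards Castaneus. Of the 7 Schlafen genes 6 were then tested, Slfn1 being left out, and Slfn5 and Slfn9 were called, both towards C57BL/6. The median log2 ratio of the 6 genes was -1.76, beside -0.05 over all genes tested. This median falls between Slfn3 and Slfn8, which were not called and whose standard errors exceed their ratios. It is therefore no measure of the family as a whole.

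Slfn9 had the stronger imbalance of these. The C57BL/6 and Castaneus reads were 171 and 8, 194 and 6, 180 and 14, and 123 and 12 in replicates 1 to 4. All 4 replicates had more from C57BL/6, and the Castaneus share was 5.89% ± 2.65 (SD, n = 4), with intervals that spanned 1.11% to 15.0%. The log2 ratio was -4.05 with a standard error of 0.50 (edgeR without the RPKM minimum, adjusted p = 0.000226), a 16.5-fold higher C57BL/6 level. Of the 13627 genes 1.90% had a lower ratio than Slfn9, and 4.63% had a lower ratio than Slfn5. The Slfn9 reads stand for an estimated 8.83 to 18.8 molecules per replicate. Only 6 to 14 reads per replicate came from Castaneus, so the size of the fold is uncertain. The shares of Slfn9 and Slfn5 did not overlap, since the highest of Slfn9 was 8.89% and the lowest of Slfn5 13.0%, a difference that was not tested.

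**Figure D3:**
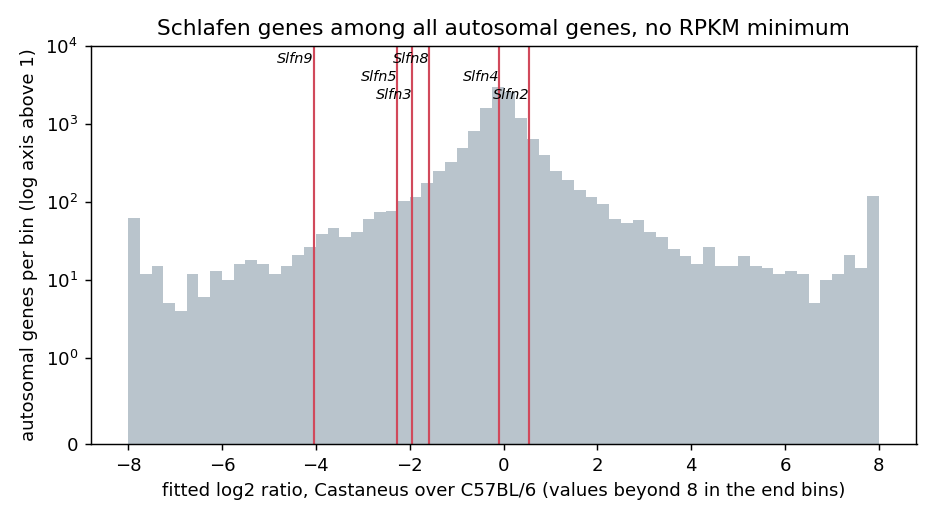
Number of autosomal genes (log axis above 1) by fitted log2 ratio of Castaneus over C57BL/6 in bins of 0.25, without the RPKM minimum, with the 6 tested Schlafen genes as lines. Slfn9 at -4.05 and Slfn5 at -2.27 are the called members, and Slfn3 and Slfn8, which lie near Slfn5, were not called.

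Slfn8, the near copy of Slfn9, gave no such result. Its C57BL/6 and Castaneus reads were 49 and 8, 16 and 22, 14 and 0, and 10 and 9, with a mean Castaneus share of 29.8% ± 27.3 (SD, n = 4). By counting error alone, with 3 counts as the bound, the 0 of replicate 3 limits the Castaneus share there to 21.4%, but its 14 reads stand for an estimated 1.08 molecules and set no real limit. Its log2 ratio was -1.58 with a standard error of 1.64 (edgeR, adjusted p = 0.564), an error larger than the ratio itself, and whether Slfn8 and Slfn9 differ was not tested.

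Slfn4 had reads from both alleles, with the higher allele changing between replicates. They were 41 and 97, 116 and 50, 45 and 50, and 51 and 34 from C57BL/6 and Castaneus, and the mean Castaneus share was 48.3% ± 17.3 (SD, n = 4). Castaneus was higher in replicates 1 and 3 and C57BL/6 in replicates 2 and 4. These are the same sides as for Slfn2, a match that was not tested and that rests partly on near ties. The log2 ratio was -0.09 with a standard error of 0.61 (edgeR, adjusted p = 0.944). The Slfn4 reads stand for an estimated 7.32 to 12.1 molecules per replicate, so its shares are loosely measured. Slfn3 had no allelic reads in replicate 1 and 42 and 0, 7 and 3, and 15 and 14 in replicates 2 to 4, and its log2 ratio of -1.95 had a standard error of 2.23 (edgeR, adjusted p = 0.610). By counting error alone the Castaneus share of Slfn3 in replicate 2 was at most 7.14%, but its 42 reads stand for an estimated 1.86 molecules.

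The levels of most myeloid markers differed between the libraries, and several had the library order of Slfn4. The summed level of the 10 myeloid markers was 111, 183, 73.8 and 55.0 RPKM in replicates 1 to 4, and Lyz2, the lysozyme gene of macrophages and neutrophils, had 44.7, 74.4, 27.2 and 18.8 RPKM. In 6 of the 10 markers the libraries had the same order as in Slfn4, with replicate 2 highest, then 1, 3 and 4. The sum is mostly Lyz2, S100a8 and S100a9, and not all markers followed it. Cd68, a macrophage lysosome gene, had 9.91, 16.8, 15.5 and 16.3 RPKM, and Mpo, the myeloperoxidase gene, had 0, 0, 0.165 and 0.0619 RPKM. Of the autosomal genes with at least 0.1 RPKM 5.55% had this order, and of the Schlafen genes Slfn4 and Slfn9 had it. The myeloid sum spanned a wider range than Slfn4, whose highest replicate was 0.637 and lowest 0.272 RPKM. Slfn2, Slfn3 and Slfn5 were also highest in replicate 2, while Slfn1 was lowest there. Of the myeloid markers none was at 0 in all 4 replicates. The 6 B cell markers summed to 11.5, 7.95, 5.48 and 5.76 RPKM in replicates 1 to 4. Their sum was thus also lower in replicates 3 and 4, but highest in replicate 1. The 4 NK cell markers summed to 3.69 to 5.21 RPKM, most of it Eomes, which T cells also express. The 4 dendritic cell markers summed to 12.5 to 14.8 RPKM, most of it Zbtb46, with Siglech and Xcr1 at 0.0589 RPKM or less. The part of these cells in the Schlafen values was not tested, and in bulk RNA fewer cells of a type and less RNA per cell cannot be told apart.

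**Figure D4:**
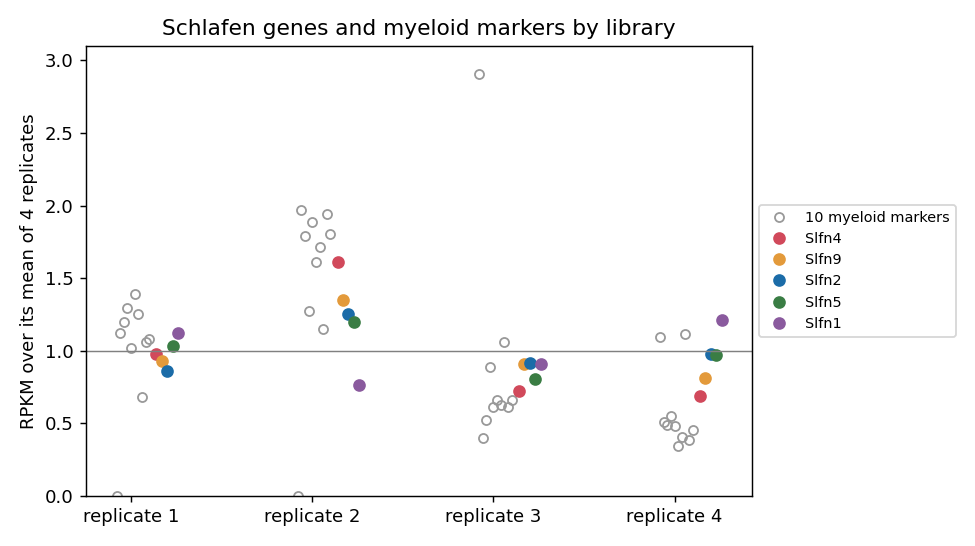
RPKM divided by the gene's own mean of 4 replicates, for Slfn4, Slfn9, Slfn2, Slfn5 and Slfn1 (filled) and the 10 myeloid markers (open) in each library. Slfn4 and most of the myeloid markers are highest in replicate 2 and low in replicates 3 and 4, and Slfn1 is lowest in replicate 2.

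Between replicates 2 members varied more than the median of autosomal genes of like level, 3 varied less, and Slfn1 and Slfn4 lay near it. The coefficient of variation was 16.3% for Slfn5, where the median of 2045 autosomal genes within 1.5-fold of its level was 22.9%. It was 20.3% for Slfn1 (median 22.5%), 24.0% for Slfn9 (median 40.6%), 41.7% for Slfn8 (median 74.4%) and 42.8% for Slfn4 (median 42.2%). Slfn2 with 17.4% (median 10.8%) and Slfn3 with 64.6% (median 44.4%) varied more than most of their peers, and 78.8% of genes at the level of Slfn2 varied less.

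The strongest imbalance in the neighbourhood belonged to a Schlafen-like pseudogene outside the named family. Gm11427 (ENSMUSG00000083161, chr11:83224454-83260960, a transcribed unprocessed pseudogene) begins 9.30 kb beyond Slfn3. Its longest transcript, of 1696 bases, was identical to that of Slfn4 at 92.3% of 1674 aligned bases and to that of Slfn3 at 93.7% of 1536. The stretches below are bases 544 to 633 of the Gm11427 transcript and of the Slfn4 coding sequence (GENCODE M21), chosen like those above, and capitals mark the 2 differences.
Gm11427: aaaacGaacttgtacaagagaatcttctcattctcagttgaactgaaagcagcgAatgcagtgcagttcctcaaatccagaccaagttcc
Slfn4: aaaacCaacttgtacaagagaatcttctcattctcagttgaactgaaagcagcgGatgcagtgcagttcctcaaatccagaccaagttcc
Its level was 3.63, 4.84, 3.04 and 4.02 RPKM, a mean of 3.88 ± 0.753 (SD, n = 4), which lies above every member except Slfn2. C57BL/6 reads numbered 912, 1085, 755 and 952 and Castaneus reads 7, 0, 0 and 2, so nearly all came from C57BL/6 in each replicate. The Castaneus share was 0.243% ± 0.360 (SD, n = 4), and the 0 reads of replicates 2 and 3 allow up to 0.276% and 0.397% by counting error alone. At the 22.6 and 13.0 reads per molecule estimated for these libraries, the limits on molecules are higher. The log2 ratio was -8.60 with a standard error of 0.45 (edgeR, adjusted p = 1.65e-07). Of the 50-base words of this transcript 13.4% also occur in Slfn3 and 9.78% in Slfn4. Slfn10-ps (chr11:83028130-83040042), in the middle of the cluster, had 0.728 ± 0.119 RPKM and 203 C57BL/6 and 177 Castaneus reads in all, with no call (edgeR, log2 ratio 0.50, adjusted p = 0.795). Slfn14 had 0.0330 RPKM in replicate 1 and was listed at 0 in the others, and the distant relative Slfnl1 on chromosome 4 had 0.135 ± 0.0701 RPKM and 35 and 50 reads in all from C57BL/6 and Castaneus.

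Within the cluster and 500 kb on either side of it, imbalance was compared with that of Slfn5. Of 60 genes there other than the members 14 were tested with the RPKM minimum. Over all autosomal genes tested 15.6% were called towards C57BL/6 and 12.4% towards Castaneus, and of the 14 genes 6 and 1 were. The median log2 ratio of the 14 was -0.21 beside -0.04 for all autosomal genes. Of these 14, apart from Gm11427, only AA465934, a noncoding transcript 76.5 kb beyond Slfn3, had a ratio lower than Slfn5, with 9.95% ± 9.22 from Castaneus (log2 ratio -3.41, standard error 0.85, edgeR, adjusted p = 0.0117). The others called towards C57BL/6 had log2 ratios nearer to 0. They were Zfp830, a zinc finger gene (-0.57), Rad51d, a recombination repair gene (-0.45), Ccl6, a chemokine gene (-0.41), and Ap2b1, an adaptor subunit gene of clathrin coats (-0.16). Nle1, a ribosome assembly gene 42.9 kb from Slfn5, was called towards Castaneus (log2 ratio 0.44). Rad51d and Nle1, the tested genes nearest to Slfn5 on its outer side, thus had 41.9% ± 3.48 and 57.1% ± 2.11 from Castaneus (SD, n = 4), on both sides of equality.

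**Figure D5:**
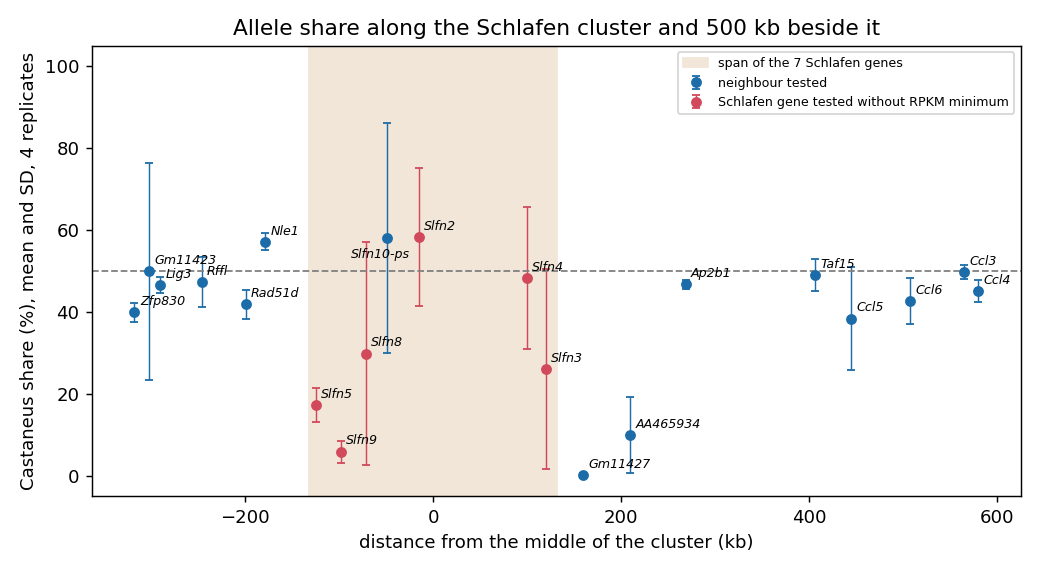
Mean Castaneus share (%) with SD over 4 replicates, by distance from the middle of the cluster in kb, for the 6 tested Schlafen genes (red; Slfn3 over the 3 replicates with reads), Slfn10-ps and the 14 tested neighbours (blue). Low shares are found at Slfn5, Slfn9, Gm11427 and AA465934, and the other 12 tested neighbours lie between 38.4% and 57.1%. Slfn3 and Slfn8 also have low means, 26.1% and 29.8%, but with SDs of 24.4 and 27.3.

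Other quiescence factors of T cells were more abundant than Slfn2. All 9 genes of this list had more RPKM than Slfn2, with a median of 19.3, and all 9 were tested. Of them 2 were called towards each allele, where 15.6% of all autosomal genes tested were called towards C57BL/6 and 12.4% towards Castaneus. Btg1, an antiproliferative gene, had a log2 ratio of -0.29 (edgeR, adjusted p = 1.6e-05), and the transcription factor genes Bach2 and Foxo1 had 0.26 and 0.16 (edgeR, adjusted p = 0.00382 and 0.0360). Of 15 interferon-related genes 11 were tested, and Bst2, which encodes the virion tether tetherin, was called towards Castaneus (log2 ratio 0.98, edgeR, adjusted p = 0.00115). The median log2 ratios of the 2 lists were -0.04 and -0.05. The interferon list had a median level of 1.53 RPKM, and 11 of its 15 genes reached 1 RPKM, as did 3 of the 7 Schlafen genes.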

How the data were processed

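The 4 libraries were made from total RNA with a stranded, ribosome-depleting kit (labels' protocols). The authors deposited raw read counts per gene and allele, not normalized, and RPKM values of both alleles together, per the file headers. Per the submitters' processing notes, STAR 2.7.1a, featureCounts and mm10 were used. Allele assignment and the strand setting are not given in the sources. Allele counts were fitted with edgeR 4.0.16 (R 4.3.3; glmQLFit, glmQLFTest) and the replicate as a block, as the alleles of 1 sample are compared, over autosomal genes with a mean of at least 20 allelic reads and 1 RPKM. An allele's library size was its autosomal total. P-values were two-sided and adjusted by Benjamini-Hochberg over all genes tested at an FDR of 5%, and a standard error is the log2 ratio over the root of F. DESeq2 1.42.0 was an alternative. The test was tried on simulated data. The labels call the samples biological replicates without naming the animals, so p-values measure the spread between these samples.

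The members and lists were chosen with earlier results of these data known. Named are the members, other Slfn genes, called genes within 500 kb, and at most 3 called genes of the quiescence and interferon lists. Sequences came from RefSeq, where all 7 members matched, and GENCODE M21, and were aligned with Biopython 1.88. The planned search for a protein motif was not run. Levels were not tested. Results of some genes beside the cluster and in the interferon list are not reported here.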

Additional observations from a re-analysis of the deposited data

How the results depend on the processing

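The calls of Slfn5 and Slfn9 towards C57BL/6 held in every alternative run. For Slfn5 the log2 ratio ranged from -2.40 to -2.11 over 11 alternatives (adjusted p = 1.52e-19 to 0.00164), and for Slfn9 from -4.30 to -3.60 over 8 alternatives without the RPKM minimum (adjusted p = 4.29e-18 to 0.00512), 7 of them added after the data were seen. Without the replicate block the log2 ratio of Slfn5 was -2.22 (edgeR, adjusted p = 5.07e-05) and that of Slfn2 0.39 (edgeR, adjusted p = 0.719), so leaving out the block changed neither call. Slfn2 was not called in any of 11 alternatives (log2 ratio 0.12 to 0.89), nor were Slfn8, Slfn4 and Slfn3 in 8, 8 and 6. The log2 ratio of Slfn4 changed sign to 0.0945 on reads divided by reads per molecule, to 0.29 without replicate 2 and to 0.0867 without replicate 4 (-0.53 without replicate 1), with no call. Slfn3 had too few reads to be tested without replicate 2 or 4. Gm11427 was called in all 11 alternatives, also added after the data were seen. Leaving out 1 replicate, 1041 (without replicate 4) to 1720 autosomal genes were called towards C57BL/6, against 1605 with all 4, and 913 to 1338 towards Castaneus, against 1278. The excess of calls towards C57BL/6 depended on the scaling. It turned with TMM factors, to 1352 towards C57BL/6 and 1481 towards Castaneus, and with DESeq2's Wald test, to 1883 and 1930. It stayed on reads divided by reads per molecule (2004 and 1502) and with the totals of the cluster's chromosome as library sizes (1897 and 1139). The cause of these shifts was not tested. Within 1 Mb of the cluster 8 of 21 tested genes were called towards C57BL/6 and 1 towards Castaneus. All 42 alternative values of the members' levels lay within 1 SD of the main ones. A mean that leaves out 1 of 4 replicates cannot move by 1 SD, so for those values this was fixed in advance. Without 1 replicate, the mean of Slfn3 ran from 0.254 to 0.440 RPKM and that of Slfn2 from 5.37 to 6.14 RPKM. The ranks of all 7 levels depend on the floor of 0.1 RPKM, and among genes above 0 RPKM Slfn8 ranked above 28.9% and not 0.593%, and Slfn2 above 73.5% and not 62.9%. Allelic depth limits Slfn1, Slfn2, Slfn3, Slfn4 and Slfn8, and the size of the Slfn9 ratio.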
